A study of Mus musculus with 11 samples.

Results

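The extracellular matrix of embryonic connective tissue is built from collagens and from a second layer of glycoproteins, proteoglycans and cross-linking enzymes, and 40 genes of that second layer are described here in mouse embryonic palatal mesenchyme cells (MEPMs). They were given as a list by name and found through the RefSeq transcript accessions that label each row of the deposited expression table. All 40 were found, 1 row each, among 23286 rows. MEPMs are cultures of the mesenchyme of the secondary palate, here taken at E13.5, and polyA RNA was sequenced from 11 libraries. The libraries fall into 3 groups: 3 were made after 1 h of FGF1 at 50 ng/mL, given together with heparin at 1 µg/mL; 4 after 1 h of PDGFA at 30 ng/mL; and 4 from serum starved cells that got no ligand. All groups were grown in DMEM with 10% serum and kept overnight in 0.1% serum. Neither the mouse strain nor the number of embryos or cultures behind the libraries is stated in the labels. Heparin was given to the FGF1 cells alone, so effects of FGF1 and heparin cannot be told apart, and the ligand doses differ between the FGF1 and PDGFA groups.

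Each group is represented by 1 FPKM value per row, which the authors made from that group's libraries together with a lower and an upper bound. FPKM counts fragments scaled to transcript length and to library size, and how library size was set is not stated. FPKM is a level per transcript length, so levels of different genes can be set side by side. The bounds stand in square brackets after each value, and their confidence level is not stated. There are no values per library, so no SD, no replicate test and no p-value stands behind any statement. A row was called higher or lower when the bounds of the 2 groups lay wholly apart. Log2 folds were taken after adding 0.5 to each FPKM, so those of low genes come out too small; ratios are of the FPKM values themselves. Bounds beside a ratio are the widest it can take within the bounds of both groups. Sequencing depth is unknown.

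Fibronectin, tenascins, periostin and similar adhesive glycoproteins link cell-surface integrins to collagen and shape how cells spread and move. Fibrillins, elastin, fibulins and microfibril-associated proteins form the microfibrils and elastic fibres of stretchable tissue, and latent TGF-beta binding proteins hold the growth factor TGF-beta on those fibres. Small leucine-rich proteoglycans such as decorin bind collagen fibrils and limit their growth, nidogens join laminin and collagen networks in basement membranes, and lysyl oxidases cross-link collagen and elastin. In the growing palatal shelves this matrix is laid down by the mesenchyme, whose cells respond to both PDGF and FGF.

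Many of the genes were among the most abundant transcripts of these cells in every group. Summed over the 40 rows, the level was 10814 FPKM with FGF1 and heparin, 10114 with PDGFA and 10689.6 in starved cells. That is 2.61%, 2.41% and 2.77% of the FPKM of all rows without a failed estimate in the same groups. The 2 rows left out of these totals are Thbs1 and Col1a1, and ranks among all rows take them as listed. The member median was 90.5 FPKM with FGF1, 106 with PDGFA and 90.8 in starved cells, against 11.9, 12.1 and 11.7 over the 11702 rows that reached 1 FPKM in some group. In each group 23 of the 40 stood among the 1000 highest rows of the table.

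The values of 4 genes lay above 1000 FPKM in every group. Sparc, a collagen-binding glycoprotein also known as osteonectin, had 2834 FPKM [1611 to 4054] with FGF1 and heparin, 2635 FPKM [980.1 to 4289] with PDGFA and 2744 FPKM [1467 to 4021] in starved cells, and ranked 5, 7 and 5 from the top among all rows in those groups. Bgn, the small proteoglycan biglycan, had 1300.5 FPKM [792 to 1807] with FGF1 and heparin, 1249 FPKM [539 to 1959.8] with PDGFA and 1313 FPKM [822 to 1798] in starved cells. Fn1, fibronectin, had 1213 FPKM [622 to 1804] with FGF1 and heparin, 1069.6 FPKM [232 to 1909.8] with PDGFA and 1263 FPKM [381 to 2146] in starved cells, the widest bounds of the 4 relative to the value. Lox, the founding lysyl oxidase, had 1226 FPKM [739 to 1709.9] with FGF1 and heparin, 1059.8 FPKM [422 to 1696] with PDGFA and 1074 FPKM [660.0 to 1490.0] in starved cells. Adding Postn, these 5 rows held 66.1% of the summed member level with FGF1, 63.5% with PDGFA and 66.3% in starved cells.

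In starved cells the order of levels ran from Sparc through Bgn, Fn1, Lox and Postn to Efemp1, Tnc, Aspn, Ogn and Fbln5, and ended with Matn2, Mfap5, Comp and Tnxb. Few neighbours in that order were separated: the bounds lay apart for 5 of 39 neighbouring pairs in starved cells (Postn above Efemp1, Dcn above Spp1, Fbln1 above Matn2, Mfap5 above Comp, and Comp above Tnxb), for 3 with FGF1 and for 2 with PDGFA. Most neighbours thus did not differ beyond their bounds, and the same 5 genes stood highest in all 3 groups.

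**Figure D1:**
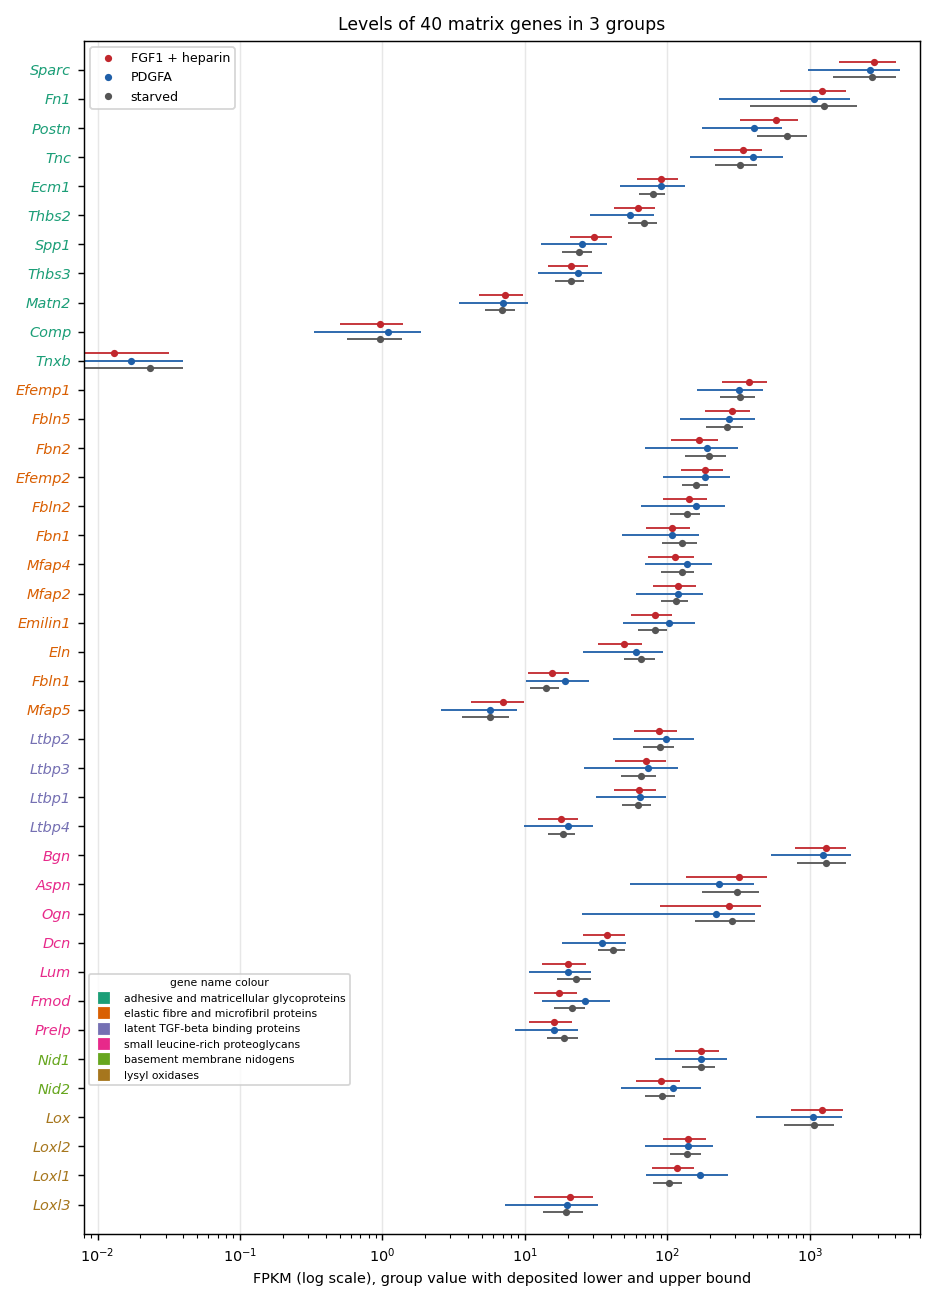
FPKM on a log axis for all 40 genes, with FGF1 and heparin (red, top), PDGFA (blue, middle) and starved cells (grey, bottom); points are group values, lines run between the deposited bounds, and lower bounds at 0 are drawn to the edge of the plot. For every gene the 3 lines overlap, while levels between genes span from Tnxb under 1 FPKM to Sparc above 1000 FPKM.

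At the low end, Tnxb, which encodes tenascin-X, had 0.0131 FPKM with FGF1, 0.0171 with PDGFA and 0.0234 in starved cells, and was the 1 member left out of the comparisons. Comp, the cartilage oligomeric matrix protein of the thrombospondin family, had 0.957 FPKM [0.502 to 1.40] with FGF1 and heparin, 1.09 FPKM [0.330 to 1.85] with PDGFA and 0.962 FPKM [0.565 to 1.37] in starved cells. It reached 1 FPKM with PDGFA alone and so entered the comparisons through that group. The cartilage and bone neighbours of these cells were checked by markers. Of 5 cartilage markers 2 reached 1 FPKM in each group. Col2a1, the cartilage collagen, had 79.9 FPKM with FGF1, 69.1 with PDGFA and 74.9 in starved cells, and Sox9, a transcription factor of cartilage, had 16.7, 16.3 and 15.7 FPKM in the same groups, while Acan, Matn1 and Col9a1 were under 1 FPKM. Of 6 bone markers 1 reached 1 FPKM in each group: Runx2, a transcription factor of bone-forming cells, had 7.51 FPKM with FGF1, 7.74 with PDGFA and 7.80 in starved cells. Of 10 mesenchymal markers 9 reached 1 FPKM in each group, the highest in starved cells being Col1a2 at 2025 FPKM and Vim at 1982. The lowest of the 9 were Osr2 and Pdgfra. Pdgfra, the main receptor for PDGFA, had 2.46 FPKM [1.58 to 3.34] with FGF1 and heparin, 3.52 FPKM [1.70 to 5.34] with PDGFA and 3.87 FPKM [2.95 to 4.79] in starved cells, and Osr2, a palate transcription factor, had 2.94, 3.81 and 3.73 FPKM in the same 3 groups. Of 8 epithelial markers 1 reached 1 FPKM (Krt18), and of 5 endothelial markers 2 did (Kdr and Tek), in each group.

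Early response genes served as a check of the labels. Of 10 such genes, 10 were called higher with FGF1 and 9 with PDGFA against starved cells, Fos being the exception with PDGFA. The summed values of muscle markers were not the same in each group either. The 7 smooth muscle and pericyte markers summed to 5585 FPKM with FGF1, 6609 with PDGFA and 4539 in starved cells. Of these 6 were compared, all with a higher value with each ligand than in starved cells, and 0 were called in any comparison. Most of the sum was Acta2, with overlapping bounds of [946 to 7026] with PDGFA and [1404 to 4087] in starved cells. Rgs5, under 1 FPKM in every group, was lower with PDGFA, at 0.514 against 0.829 in starved cells. The 9 skeletal muscle markers summed to 30.3, 109 and 23.4 FPKM with FGF1, with PDGFA and in starved cells, of which 3, 5 and 3 reached 1 FPKM. Of the 5 skeletal muscle markers compared, Acta1, Actc1 and Mylpf reached 1 FPKM in every group. Their log2 folds for PDGFA against starved cells were 2.31, 2.55 and 0.96. Myog and Tnni1 reached 1 FPKM with PDGFA alone and entered through that group, so their higher values there were fixed by the minimum level. Acta1 and Actc1 were called higher with PDGFA, where 0.308% of compared rows were, and Mylpf was not called. With FGF1 3 of the 5 skeletal muscle markers compared were higher than in starved cells (median 0.02), and 0 were called. Myod1, Myf5, Tnnt3 and Ckm were under 1 FPKM in every group. The part of the muscle markers in the matrix values below was not tested. In bulk RNA fewer cells of a type and less RNA per cell cannot be told apart.

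None of the matrix genes differed between groups beyond its bounds. With FGF1 and heparin against starved cells, 0 of 39 compared members were called higher, where 0.538% of all compared rows were, and 0 were called lower, where 0.0171% were. With PDGFA against starved cells 0 of 39 were called higher and 0 lower, against 0.308% and 0% of compared rows. With FGF1 against PDGFA the counts were again 0 and 0, against 0.0256% and 0.094%. The split of calls over all rows varied with the scaling: PDGFA against starved cells gave 36 higher and 0 lower as deposited, 29 and 74 after quantile normalization, 35 and 7 with the trend on GC content, length and level removed, and 33 and 4 with equal column sums. FGF1 against PDGFA gave 3 and 11 as deposited, 64 and 4 after quantile normalization, 9 and 13 with the trend removed, and 1 and 11 after median-of-ratios scaling. The member counts were 0 in each of these. Calls were so rare across the table that 0 of 39 does not set these genes apart from other rows.

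The values themselves lay close together. Between FGF1 and starved cells the 39 ratios ran from 0.752 to 1.28, and 34 were within 1.2-fold of equality (87.2%, against 91.8% of all rows averaging 10 FPKM or more). Between PDGFA and starved cells they ran from 0.584 to 1.64, with 30 within 1.2-fold (76.9%, against 76.3%). Between FGF1 and PDGFA they ran from 0.663 to 1.42, with 27 within 1.2-fold (69.2%, against 82.6%). The member median log2 fold was 0.0071 for FGF1 against starved cells, 0.02 for PDGFA against starved cells and -0.0034 for FGF1 against PDGFA, beside 0.02, -0.0029 and 0.01 over all compared rows. Over rows averaging 10 FPKM or more the medians were 0.05, 0.03 and 0.02. Values were higher with FGF1 than in starved cells for 21 of 39 members (53.8%), against 56.0% of all compared rows and 69.3% of rows averaging 10 FPKM or more. With PDGFA they were higher for 24 of 39 (61.5%), against 49.3% and 56.1%. Comp, which entered the comparisons through PDGFA, is among the 24. With a minimum of 5 FPKM 23 of 38 members were higher with PDGFA, against 53.0% of all rows. With all columns scaled to equal sums the median of all rows was -0.07 for FGF1 and -0.12 for PDGFA against starved cells, and 10 and 14 of 39 members had the higher value, beside 26.8% and 31.04% of all rows.

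The precision differed by group. The bounds lay a median of 34.2% of the member's FPKM from it with FGF1, 54.6% with PDGFA and 25.2% in starved cells. With such bounds, a median member would have needed a 1.88-fold rise or a fall to 0.563 of the starved value to be called with FGF1, and a 2.84-fold rise or a fall to 0.484 to be called with PDGFA. Smaller changes within the hour were not detectable here, and a missing call does not show that a level was unchanged.

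**Figure D2:**
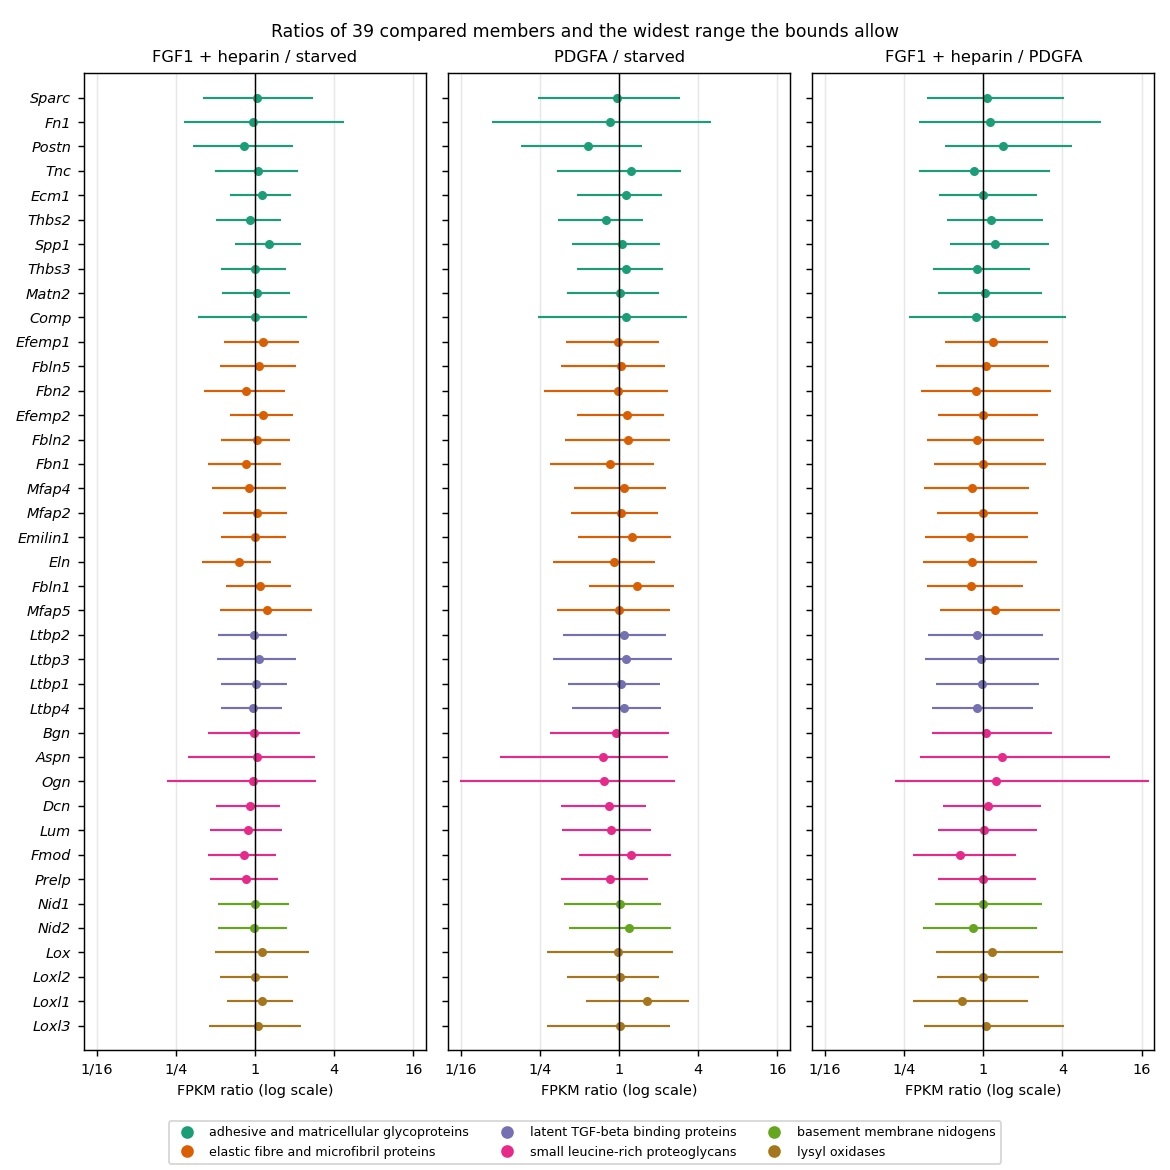
FPKM ratios of the 39 compared members on a log axis, for FGF1 and heparin over starved cells (left), PDGFA over starved cells (middle) and FGF1 and heparin over PDGFA (right); points are ratios of group values and lines the widest range the deposited bounds allow. Every line crosses 1, and the points farthest from 1 are Loxl1 and Postn with PDGFA.

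Among adhesive and matricellular glycoproteins, Postn stood out by size. Periostin, which binds collagen and promotes its cross-linking (mm10 chr3:54361107-54391041), had 578 FPKM [327 to 831] with FGF1 and heparin, 407 FPKM [175 to 639] with PDGFA and 697 FPKM [428 to 965] in starved cells. It was lowest with PDGFA, and the bounds of all groups overlapped. The ratio was 0.584 (bounds 0.181 to 1.49) for PDGFA over starved cells, the lowest of the 39, 0.830 (bounds 0.339 to 1.94) for FGF1 over starved cells and 1.42 (bounds 0.512 to 4.76) for FGF1 over PDGFA. The PDGFA value lay below the starved bounds and the starved value above the PDGFA bounds. Under a looser rule that asks only this, Postn was the 1 member of 39 called, lower with PDGFA, where 0.376% of compared rows were called lower and 0.59% higher. No member was called with FGF1 against starved cells under that rule, where 1.05% of rows were called higher and 0.709% lower, or with FGF1 against PDGFA, where 0.35% and 0.162% were.

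Other adhesive glycoproteins differed less between groups. Tnc, tenascin-C, a large glycoprotein of remodelling mesenchyme, had 339 FPKM [212 to 465] with FGF1 and heparin, 398 FPKM [144 to 649.8] with PDGFA and 322 FPKM [218 to 426] in starved cells. Its PDGFA value was the highest and sat inside the starved bounds. Thbs2, a thrombospondin that restrains blood vessel growth, had 62.6 FPKM [42.6 to 82.6] with FGF1 and heparin, 54.8 FPKM [28.9 to 80.7] with PDGFA and 68.6 FPKM [52.7 to 84.5] in starved cells. It was highest in starved cells and lowest with PDGFA, with overlapping bounds. Spp1 (mm10 chr5:104435111-104441053), osteopontin, a secreted ligand of integrins, had 30.8 FPKM [20.9 to 40.8] with FGF1 and heparin, 25.3 FPKM [12.9 to 37.7] with PDGFA and 24.0 FPKM [18.4 to 29.6] in starved cells. Its FGF1 value lay above the starved bounds, at a ratio of 1.28 (bounds 0.705 to 2.22), the largest for FGF1 among the 39, but the starved value lay inside the FGF1 bounds.

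Ecm1, a secreted glycoprotein of skin and vessel matrix, had 90.1 FPKM [61.9 to 118] with FGF1 and heparin, 90.3 FPKM [46.5 to 134] with PDGFA and 79.7 FPKM [63.0 to 96.4] in starved cells. Thbs3, a pentameric thrombospondin, had 21.2 FPKM [14.5 to 28.0] with FGF1 and heparin, 23.8 FPKM [12.5 to 35.1] with PDGFA and 21.3 FPKM [16.3 to 26.2] in starved cells. Matn2, a matrilin that joins matrix filaments, had 7.23 FPKM [4.78 to 9.66] with FGF1 and heparin, 6.97 FPKM [3.46 to 10.5] with PDGFA and 6.92 FPKM [5.26 to 8.58] in starved cells. In all 3 the groups differed by less than their bounds. Fn1 and Sparc, given above, had ratios of 0.960 and 1.03 for FGF1 over starved cells and 0.847 and 0.960 for PDGFA over starved cells. For Fn1 the bounds would hide large changes, since its PDGFA ratio could lie anywhere between 0.108 and 5.02. Of the 10 compared genes of this kind 5 had a higher value with FGF1 than in starved cells and 6 with PDGFA, with median log2 folds of 0.02 and 0.04, and with equal column sums 2 and 4 did. Comp, which entered through PDGFA alone, is among the 6. With a minimum of 5 FPKM 5 of 9 were higher with each ligand, with medians of 0.05 for FGF1 and 0.0099 for PDGFA.

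The elastic fibre and microfibril genes held the lowest FGF1 value relative to starved cells. Eln (mm10 chr5:134702596-134747254), elastin, the core protein of elastic fibres, had 49.5 FPKM [32.5 to 66.6] with FGF1 and heparin, 60.0 FPKM [25.8 to 93.9] with PDGFA and 65.9 FPKM [50.0 to 81.5] in starved cells. The FGF1 value lay just below the starved bounds, and the ratio of 0.752 (bounds 0.399 to 1.33) was the lowest of the 39 for FGF1, while the starved value stayed inside the FGF1 bounds. The scaffold on which elastin is deposited had similar directions. Fbn1, fibrillin-1, had 108 FPKM [71.2 to 145] with FGF1 and heparin, 108 FPKM [48.3 to 168] with PDGFA and 127 FPKM [91.7 to 163] in starved cells, and Fbn2, the fibrillin of embryonic tissue, had 167 FPKM [106 to 227] with FGF1 and heparin, 191 FPKM [69.7 to 312] with PDGFA and 195 FPKM [133 to 258] in starved cells. Both fibrillins were highest in starved cells and their bounds overlapped in every pair.

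Fibulins, which link microfibrils, elastin and other ligands, lay on the other side of the starved value. Fbln1 had 15.5 FPKM [10.5 to 20.5] with FGF1 and heparin, 19.2 FPKM [10.2 to 28.3] with PDGFA and 14.1 FPKM [10.8 to 17.4] in starved cells. Its PDGFA value lay above the starved bounds, with a ratio of 1.36 (bounds 0.586 to 2.61). Fbln2 had 142 FPKM [94.0 to 191] with FGF1 and heparin, 159 FPKM [65.5 to 253] with PDGFA and 137 FPKM [104 to 170.3] in starved cells, and Fbln5, which tethers elastin to cells, had 284 FPKM [183 to 384] with FGF1 and heparin, 269.9 FPKM [122 to 417] with PDGFA and 263 FPKM [187 to 339] in starved cells. Efemp1 had 374 FPKM [241 to 505] with FGF1 and heparin, 317 FPKM [162 to 472] with PDGFA and 325 FPKM [234 to 412] in starved cells. Efemp2, needed in mice for elastic fibre assembly, had 185 FPKM [125 to 245] with FGF1 and heparin, 185 FPKM [93.3 to 277] with PDGFA and 160.0 FPKM [126 to 194] in starved cells. None of the 5 was called in any comparison, and Efemp1 alone had a PDGFA value below the starved one.

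The microfibril-associated proteins had overlapping bounds in every pair. Emilin1, an elastin-microfibril interface protein, had 81.9 FPKM [55.7 to 108] with FGF1 and heparin, 103 FPKM [49.2 to 156] with PDGFA and 81.5 FPKM [62.5 to 100.3] in starved cells, with the PDGFA value above the starved bounds and a ratio of 1.26 (bounds 0.490 to 2.50). Mfap2, a small glycoprotein that binds fibrillin, had 119 FPKM [79.9 to 159] with FGF1 and heparin, 120.0 FPKM [60.6 to 179.6] with PDGFA and 116 FPKM [91.2 to 141] in starved cells. Mfap4, found along elastic fibres, had 114 FPKM [73.3 to 154] with FGF1 and heparin, 138 FPKM [69.9 to 206] with PDGFA and 127 FPKM [89.9 to 154] in starved cells. Mfap5, a relative of Mfap2, had 7.03 FPKM [4.16 to 9.89] with FGF1 and heparin, 5.74 FPKM [2.59 to 8.86] with PDGFA and 5.73 FPKM [3.65 to 7.73] in starved cells. Mfap2 thus differed by no more than a few percent between groups, and Mfap5 was highest with FGF1. Over the 12 genes of this kind 8 had a higher value with FGF1 and 8 with PDGFA than in starved cells, with medians of 0.05 and 0.04, and with equal column sums 5 and 5 did.

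The latent TGF-beta binding proteins, which tether the latent growth factor complex to fibrillin microfibrils, were close to the starved level. Ltbp1, the founding member, had 63.0 FPKM [42.4 to 83.7] with FGF1 and heparin, 64.5 FPKM [31.4 to 97.6] with PDGFA and 62.3 FPKM [48.1 to 76.6] in starved cells. Ltbp2, which binds fibrillin but not the latent growth factor, had 88.0 FPKM [58.3 to 118] with FGF1 and heparin, 97.7 FPKM [41.5 to 154] with PDGFA and 89.6 FPKM [67.5 to 112] in starved cells. Ltbp3 had 70.4 FPKM [43.0 to 97.9] with FGF1 and heparin, 73.0 FPKM [26.1 to 119.9] with PDGFA and 65.2 FPKM [47.4 to 83.0] in starved cells. Ltbp4, which also takes part in elastic fibre assembly, had 17.9 FPKM [12.3 to 23.6] with FGF1 and heparin, 20.1 FPKM [9.82 to 30.3] with PDGFA and 18.6 FPKM [14.7 to 22.5] in starved cells. Every FGF1 and PDGFA value of these genes lay inside the starved bounds, and Ltbp4 was the lowest of the 4. With PDGFA all 4 values lay above the starved value, by log2 folds of 0.05 to 0.16. With equal column sums 2 of 4 did, and with a trend on GC content, length and level removed all 4 lay below, with a median of -0.20. With FGF1 2 of 4 lay above, with a median of -0.0054.

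The small leucine-rich proteoglycans mostly had values below the starved ones with both ligands. Of the 7 genes, 6 had a value below the starved one with FGF1 (median log2 fold -0.12), and 6 of 7 with PDGFA (median -0.23); both comparisons share the starved cells, and 0 of 7 were called in either. Dcn, decorin, a proteoglycan that binds collagen fibrils, had 37.9 FPKM [25.5 to 50.4] with FGF1 and heparin, 34.9 FPKM [18.3 to 51.6] with PDGFA and 41.4 FPKM [32.4 to 50.3] in starved cells. Lum, lumican, which orders collagen fibrils in the cornea, had 20.2 FPKM [13.2 to 27.1] with FGF1 and heparin, 19.99 FPKM [10.6 to 29.2] with PDGFA and 22.9 FPKM [16.8 to 29.1] in starved cells. Prelp, which links basement membranes to collagen, had 16.1 FPKM [10.8 to 21.5] with FGF1 and heparin, 16.2 FPKM [8.54 to 23.7] with PDGFA and 19.0 FPKM [14.4 to 23.5] in starved cells. These 3 and Bgn were highest in starved cells, with overlapping bounds. With PDGFA 6 of 7 stayed below the starved value after median-of-ratios scaling, quantile normalization, equal column sums and removal of the trend, and with FGF1 6 or 7 of 7 did. Over all 39 members 24 were higher with PDGFA as deposited and after median-of-ratios scaling. Only 13 were after quantile normalization, 14 with equal column sums and 14 with the trend removed, beside 38.2%, 31.04% and 48.7% of all rows. With FGF1 the member counts were 12, 10 and 12. In those 3 settings most other members thus lay below the starved value too. The size with PDGFA varied by gene: with the trend removed the median was -0.06, with Dcn at -0.06, Bgn at -0.06 and Lum at -0.01. Ogn lay at -0.18, Aspn at -0.21 and Prelp at -0.34, while Fmod lay at 0.20. With FGF1 the median was -0.21 with the trend removed, and 7 of 7 lay below the starved value.

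Fmod, fibromodulin, a proteoglycan that binds collagen fibrils and limits their thickness, had 17.5 FPKM [11.7 to 23.3] with FGF1 and heparin, 26.4 FPKM [13.1 to 39.7] with PDGFA and 21.4 FPKM [16.1 to 26.6] in starved cells. The FGF1 value was the lowest and the PDGFA value the highest of the 3, with overlapping bounds. The FGF1 over PDGFA ratio of 0.663 (bounds 0.294 to 1.77) was the lowest of the 39 in that comparison. Aspn, asporin, had 320.1 FPKM [136 to 503] with FGF1 and heparin, 232 FPKM [54.4 to 409.6] with PDGFA and 308 FPKM [175 to 441] in starved cells, and Ogn, osteoglycin, had 273 FPKM [88.4 to 457] with FGF1 and heparin, 220.1 FPKM [25.2 to 415] with PDGFA and 284 FPKM [157 to 412] in starved cells. Both were lowest with PDGFA. Their bounds were the widest of the family, lying 76.5% and 88.5% from the PDGFA value. The deposited table gives both the same locus, mm10 chr13:49464059-49652731, which also covers the related genes Omd and Ecm2, and how fragments were split within that locus was not tested.

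The nidogens were close to level. Nid1, which joins laminin to collagen networks, had 172 FPKM [113 to 229.9] with FGF1 and heparin, 173 FPKM [82.3 to 264] with PDGFA and 171 FPKM [127 to 216] in starved cells, with ratios of 1.00 for FGF1 and 1.01 for PDGFA over starved cells. Nid2, its close relative, had 91.0 FPKM [60.0 to 122] with FGF1 and heparin, 109.8 FPKM [47.3 to 172] with PDGFA and 92.0 FPKM [70.0 to 114] in starved cells, highest with PDGFA and with overlapping bounds.

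The lysyl oxidases held the largest PDGFA value relative to starved cells. Loxl1 (mm10 chr9:58287723-58313212), an enzyme that cross-links elastin and that mice need for elastic fibre renewal, had 116 FPKM [78.1 to 155] with FGF1 and heparin, 169.6 FPKM [70.9 to 268] with PDGFA and 103 FPKM [79.1 to 128] in starved cells. The PDGFA value lay above the starved bounds, but the starved value lay inside the PDGFA bounds, so the groups overlapped. The ratio was 1.64 (bounds 0.555 to 3.39) for PDGFA over starved cells, the highest of the 39, 1.13 (bounds 0.611 to 1.96) for FGF1 over starved cells and 0.687 (bounds 0.291 to 2.18) for FGF1 over PDGFA. Its relative Lox had ratios of 1.14 for FGF1 and 0.987 for PDGFA over starved cells, with overlapping bounds.

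Loxl2, which acts on basement membrane collagen, had 139.6 FPKM [93.1 to 186] with FGF1 and heparin, 139 FPKM [70.0 to 209] with PDGFA and 138 FPKM [104 to 173] in starved cells. Of the 31-base words of its transcript 72.4% also occur in transcripts of other genes, chiefly Gm21451, so its level is uncertain. Loxl3, which mice need to form the palate, had 20.8 FPKM [11.6 to 29.9] with FGF1 and heparin, 19.9 FPKM [7.29 to 32.6] with PDGFA and 19.6 FPKM [13.4 to 25.8] in starved cells. All 4 lysyl oxidases had a value above the starved one with FGF1 (median log2 fold 0.13), and 3 of 4 did with PDGFA (median 0.02). After median-of-ratios scaling, quantile normalization and removal of the trend 3 of 4 did with FGF1 in each, and with PDGFA 3, 1 and 2 of 4 did. With equal column sums 2 of 4 did with FGF1 and 1 of 4 with PDGFA. Equal column sums also lowered the share of all rows with a higher value, as given above.

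**Figure D3:**
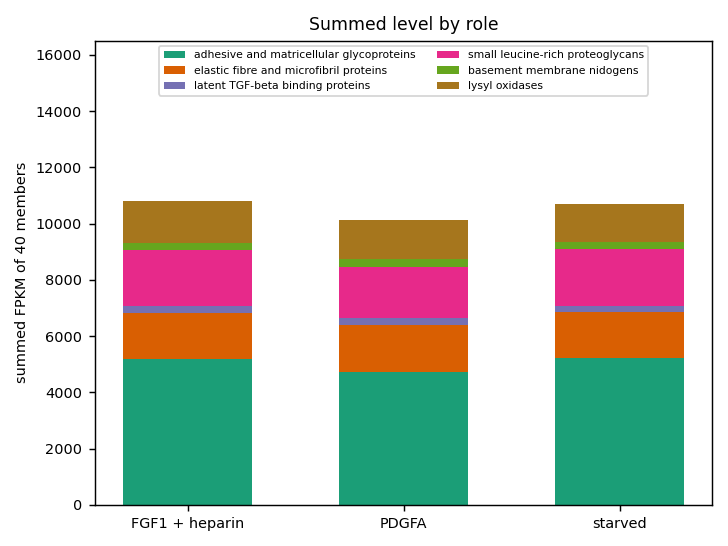
Summed FPKM of the 40 genes, stacked by role, with FGF1 and heparin, with PDGFA and in starved cells. The bars reach 10814, 10114 and 10689.6 FPKM, and the adhesive glycoproteins make up the largest part of each.

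By summed level, adhesive glycoproteins held 47.9% of the member total with FGF1, 46.6% with PDGFA and 48.9% in starved cells. The small proteoglycans held 18.4%, 17.8% and 18.8%, most of it Bgn. Elastic fibre genes held 15.2%, 16.6% and 15.1%, and lysyl oxidases 13.9%, 13.7% and 12.5%, most of it Lox. These shares of the group values were thus close to each other between the groups. The sums rest mostly on Sparc, Bgn, Fn1, Lox and Postn, whose bounds are wide, and carry no test. They do not show that the make-up of this matrix transcript pool was the same.

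Base composition went with the PDGFA values of these genes, as it did across the table. The member transcripts ran from 34.3% GC in Aspn to 62.4% in Ltbp4. Among the 13 compared members of lowest GC content, 5 had a PDGFA value above the starved one, with a median log2 fold of -0.04. Among the 13 of highest GC content 12 did, with a median of 0.16. Across the 39 genes the Spearman correlation of GC content with the log2 fold was 0.670 for PDGFA against starved cells, beside 0.611 over 11498 rows of at least 200 nt. For FGF1 against starved cells it was 0.0091, beside 0.182. For FGF1 against PDGFA it was -0.735, beside -0.598, the farthest from 0 among the members. These genes share libraries and are not replicates.

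The members with a PDGFA value outside the starved bounds had log2 folds nearer 0 when a trend on GC content, length and level was taken out. The log2 fold of Loxl1 with PDGFA was 0.71 as deposited and 0.37 without the trend. For Postn it was -0.77 as deposited and -0.67 without, for Fbln1 0.43 and 0.29, and for Emilin1 0.33 and -0.03. The FGF1 log2 fold of Eln lay farther from 0, with -0.41 as deposited and -0.51 without the trend.

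**Figure D4:**
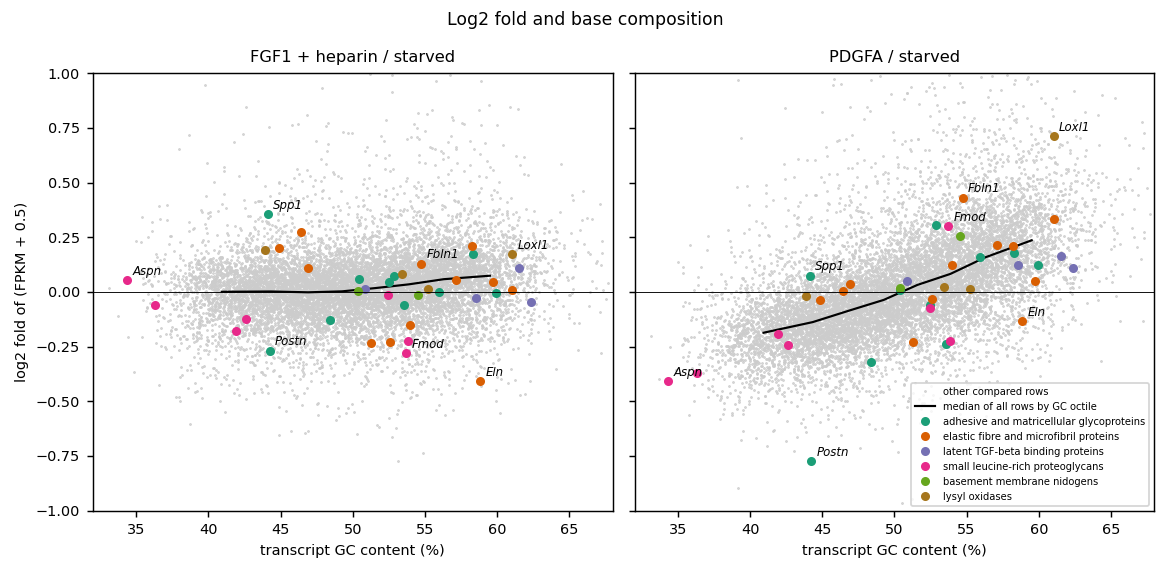
Log2 fold of FPKM + 0.5 against transcript GC content, for FGF1 and heparin over starved cells (left) and PDGFA over starved cells (right); coloured points are the 39 compared members, grey points other compared rows of at least 200 nt, the line is the median of all rows by GC octile, and rows beyond the vertical scale are not drawn. On the right both the line and most members climb with GC content, with Postn below and Loxl1 above the line.

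The promoter windows of the members were examined next, since the early response to both ligands runs through factors that bind short DNA motifs. RefSeq windows (GRCm38.p6) from 250 bases before to 50 after the start were at hand for 26 of the 40 genes, as 37 windows. The 5 below are those of the most abundant members with a window (Sparc and Bgn), of the members with a window whose PDGFA ratio was lowest and highest (Postn and Fbln1, at the start used by the deposited row), and of Aspn, the transcript lowest in GC. They lie at chr11:55420031-55420330, minus strand (Sparc), chrX:73483351-73483650, plus strand (Bgn), chr3:54360857-54361156, plus strand (Postn), chr15:85205758-85206057, plus strand (Fbln1) and chr13:49544193-49544492, plus strand (Aspn). Each runs 5′ to 3′ on the gene's own strand, and capitals mark a match, on either strand, to any of 6 motifs. For AP-1 the letters TGANTCA were searched, for CRE, the cyclic AMP response element, TGACGTCA, and for the EGR factors GCGNGGGCG. The SRF CArG box was searched too, and so were the words TATAAA, for the TATA box, and CCAAT, for the CCAAT box factor. Motifs that overlap were each counted.
Sparc: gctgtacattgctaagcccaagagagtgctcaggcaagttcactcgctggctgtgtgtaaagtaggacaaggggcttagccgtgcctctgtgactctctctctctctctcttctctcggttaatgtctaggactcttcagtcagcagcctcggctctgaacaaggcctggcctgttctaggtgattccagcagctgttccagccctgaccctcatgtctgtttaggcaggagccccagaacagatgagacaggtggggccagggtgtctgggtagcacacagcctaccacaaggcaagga
Bgn: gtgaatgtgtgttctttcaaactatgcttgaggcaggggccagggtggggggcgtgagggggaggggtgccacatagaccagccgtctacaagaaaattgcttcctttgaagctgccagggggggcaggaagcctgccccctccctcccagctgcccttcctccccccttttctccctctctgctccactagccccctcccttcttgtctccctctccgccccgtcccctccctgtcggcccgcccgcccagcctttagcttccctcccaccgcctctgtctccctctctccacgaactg
Postn: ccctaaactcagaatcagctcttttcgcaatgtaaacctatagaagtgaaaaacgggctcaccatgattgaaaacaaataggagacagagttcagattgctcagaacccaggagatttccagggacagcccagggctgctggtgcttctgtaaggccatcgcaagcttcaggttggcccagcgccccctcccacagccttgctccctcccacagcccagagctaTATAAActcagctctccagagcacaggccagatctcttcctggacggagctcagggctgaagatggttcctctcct
Fbln1: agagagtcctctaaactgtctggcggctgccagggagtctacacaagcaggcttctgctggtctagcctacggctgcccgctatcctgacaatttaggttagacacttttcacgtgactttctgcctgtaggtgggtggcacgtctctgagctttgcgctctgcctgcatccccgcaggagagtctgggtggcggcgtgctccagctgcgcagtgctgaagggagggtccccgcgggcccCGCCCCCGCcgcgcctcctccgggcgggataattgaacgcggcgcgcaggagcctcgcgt
Aspn: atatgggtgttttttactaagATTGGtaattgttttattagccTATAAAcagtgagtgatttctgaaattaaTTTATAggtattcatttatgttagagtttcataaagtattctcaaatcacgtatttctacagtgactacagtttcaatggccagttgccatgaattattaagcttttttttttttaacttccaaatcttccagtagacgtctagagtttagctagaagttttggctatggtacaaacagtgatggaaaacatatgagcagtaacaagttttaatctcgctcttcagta
The Sparc and Bgn windows hold none of these letters. The Postn window has a TATAAA match just before its start, and the Fbln1 window 1 EGR match on the opposite strand. The Aspn window, 31% GC against 63.7% in Bgn, has matches to TATAAA and CCAAT, all 178 or more bases before its start.

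By gene, shares are given beside those of the 9351 genes of compared rows that have a window, and then of all 27025 genes with one. An AP-1 match stood in 4 of the 26 members (15.4%: Ecm1, Efemp1, Ltbp3 and Tnxb), against 5.79% and 8.97%. Tnxb, which was not compared, is 1 of the 26 but is not among the 9351. An EGR match stood in 3 (11.5%: Fbln1, Ltbp4 and Tnc), against 12.8% and 6.27%. A CRE match stood in 1, Ltbp1 (3.85%), against 3.70% and 2.03%. No member window held a CArG box, which stood in 1.60% and 1.81%, too rare for 0 of 26 to set the members apart. TATA matches stood in 7 members (26.9%), against 8.41% and 15.7%, and CCAAT matches in 13 (50%), against 43.4% and 41.1%. The TATA match began 27 bases before the start in Ecm1 and 26 in Postn. In Aspn, Ogn, Spp1, Thbs2 and Tnc every TATA match began 126 or more bases before it, so most are letters far from the start. Some genes have several windows that overlap. A match is a stretch of letters, not a site shown to be bound, and these counts carry no test.

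Genes that work with the members were followed as lists. Of 42 further matrix glycoproteins and small proteoglycans 20 were compared, and 0 were called in any comparison, with median log2 folds of -0.05 for FGF1 and -0.02 for PDGFA against starved cells. Fstl1, a secreted relative of Sparc, had 863 FPKM [534 to 1191] with FGF1 and heparin, 816 FPKM [348 to 1285] with PDGFA and 872 FPKM [563 to 1179] in starved cells. Igfbp7, a secreted binding protein, had 278 FPKM [167 to 389] with FGF1 and heparin, 264 FPKM [107 to 420.1] with PDGFA and 224 FPKM [163 to 285] in starved cells. Thbs1, which encodes thrombospondin-1, has a failed estimate in the table, listed at 0 FPKM with FGF1 and in starved cells and at 1997 FPKM [470.3 to 3523] with PDGFA, and is not compared. Of 13 fibrillar and fibril-associated collagens 11 were compared and 0 were called, with medians of -0.10 and 0.01; Col1a1 is listed at 0 in every group and is a failed estimate too.

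All 17 genes of collagen modification and secretion were compared and 0 were called. Values were higher than in starved cells for 14 of 17 with FGF1 (median 0.08) and 13 of 17 with PDGFA (median 0.17), beside 69.3% and 56.1% of rows averaging 10 FPKM or more. These counts varied with the processing: with FGF1 they were 4 with equal column sums, 3 after quantile normalization and 6 with the trend removed, and with PDGFA 12, 10 and 7. Serpinh1, a collagen chaperone, had 1612 FPKM [956 to 2268] with FGF1 and heparin, 1992 FPKM [503 to 3483] with PDGFA and 1442 FPKM [919 to 1966] in starved cells. Plod3, a lysyl hydroxylase named after its values were seen, had 148 FPKM [66.5 to 214] with FGF1 and heparin, 89.9 FPKM [42.3 to 137] with PDGFA and 82.5 FPKM [63.7 to 101] in starved cells. Its FGF1 value was well above the others but its bounds were wide, so it was not called. The 9 compared integrin subunits (median 0.04 with FGF1 and -0.03 with PDGFA) and the 7 TGF-beta ligands, receptors and activators (median 0.08 and 0.03) also had 0 calls in any comparison. Itgb1, the shared subunit of most fibronectin receptors, had 592 FPKM [371 to 813] with FGF1 and heparin, 492 FPKM [210.4 to 771] with PDGFA and 543 FPKM [369 to 717] in starved cells, and Tgfb3, the TGF-beta needed for palatal fusion in mice, had 239.6 FPKM [159.5 to 319.7] with FGF1 and heparin, 253 FPKM [125 to 379.9] with PDGFA and 196 FPKM [146 to 246] in starved cells.

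Overlap with other genes could touch a few member values, since neither the strand of the libraries nor the handling of reads with several matches is stated. Exons of another gene on the opposite strand cover 20.3% of the exon bases of Fbn1, 13.1% of Loxl3 and 11.3% of Ltbp2. Spp1 shares 15.0% of its 31-base words with Gm42793, a gene annotated over it on the same strand, and Tnxb shares 11.6% with other genes, chiefly Tnxa. Reads from such pairs cannot be told apart here.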

How the data were processed

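The submitters' processing notes list CASAVA, TopHat and Cuffdiff with the mm10 build; the sources used here do not give versions, settings, annotation or strand. The authors deposited FPKM, 1 value per group with a lower and an upper bound, from 11 libraries of polyA RNA. FPKM is a relative level, so a row can shift when others change. Depth is unknown, and separate cultures are not stated.

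Rows with at least 1 FPKM in some group and no failed estimate (11702 of 23286; 2 failed) were called where bounds lay apart and each value lay inside its own. Without library values no replicate test was run. Members, gene lists and rules were chosen with earlier results of these data known. All 40 members are given; pathway genes are named by highest starved level within a list, except Thbs1, Col1a1 and Plod3, and marker genes were picked after their values were seen.

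Rows were named through RefSeq (GRCm38.p6, the build of mm10; 22992 rows) and GENCODE M21 (126). Starts are printed 1-based. GC content and shared 31-base words come from GENCODE M21 transcripts. The trend is a robust fit on GC, log2 length and log2 level. The call rule and the log2 folds alone were tested on simulated data, with noise scaled down from the deposited bounds. Python 3.11.15, numpy 2.4.6 and pandas 2.3.3 were used, statsmodels 0.14.6 made the trend and scipy 1.17.1 the correlations.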

Additional observations from a re-analysis of the deposited data

How the results depend on the processing

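No member was called in any comparison under another pseudocount (0.1 or 1), another minimum level (none, or 5 FPKM), median-of-ratios scaling, quantile normalization, equal column sums (added after seeing the data), removal of the base composition trend or an added 1.5-fold minimum. The exception was the looser rule, where each value must lie outside the other group's bounds: 1 member, Postn, was then lower with PDGFA than in starved cells, in place of 0. The median log2 fold over members ran from -0.11 to 0.01 for FGF1 against starved cells, from -0.10 to 0.03 for PDGFA against starved cells and from -0.02 to 0.02 for FGF1 against PDGFA, so its sign depends on the scaling in each. Calls over all rows, given above for the scalings, were 123 higher and 83 lower under the looser rule for FGF1 against starved cells, in place of 63 and 2, 69 and 44 for PDGFA against starved cells, in place of 36 and 0, and 41 and 19 for FGF1 against PDGFA, in place of 3 and 11. A minimum of 5 FPKM left 5 lower with FGF1 than with PDGFA, among fewer rows. The cause was not tested. No paired analysis was possible because the table holds 1 value per group, and for the same reason leaving out single libraries was not run. The width of the bounds, largest with PDGFA, limits what could be called.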
